A study of Mus musculus with 9 samples.

Results

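The genes described here are 10 subunits and partners of the Polycomb complexes, namely Ezh1, Ezh2, Eed, Suz12, Jarid2, Mtf2, Phf1, Phf19, Rnf2 and Scml2, measured as mRNA in mouse round spermatids (RS). They were taken by gene name from a count table of 55414 genes, and all 10 were listed with counts. RS are the haploid cells that follow meiosis. Here they were sorted from adult testes, of mice older than 10 weeks, by their low tdTomato fluorescence and their size. The mice were Stra8-Tom mice on a C57Bl/6 background, labelled WT, in which Stra8-iCre drives recombination in the germ line from spermatogonia onwards and thereby opens a CAG-lox-stop-lox-tdTomato reporter, and all 3 groups carry both alleles. In culture, RS received vehicle (DMSO at 0.15%), oxamate (24 mM) or oxamate at the same dose together with octyl-L-2HG (0.3 mM), each for 24 h. Oxamate inhibits lactate dehydrogenase, an enzyme that can make L-2-hydroxyglutarate (L-2HG), and octyl-L-2HG is a cell-permeable ester of that metabolite. The comparison of oxamate with vehicle asks what the inhibitor does, and that of the combined treatment with oxamate asks what returns when L-2HG is added back. Octyl-L-2HG without oxamate was not among the RNA-seq groups.

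Polycomb repressive complex 2 (PRC2) methylates histone H3, and its product, H3K27me3, marks silent developmental genes. EZH2 or its paralog EZH1 is the methyltransferase, EED reads the mark and SUZ12 holds the core together. Alternative accessory proteins direct this core to chromatin, either one of the Polycomb-like proteins PHF1, MTF2 and PHF19, or JARID2 with AEBP2. Polycomb repressive complex 1 (PRC1) ubiquitinates histone H2A, at H2AK119, through RING1 or RNF2. SCML2 is a germline PRC1 partner known for its part in silencing somatic genes and in shaping chromatin on the sex chromosomes during meiosis and in spermatids. L-2HG resembles alpha-ketoglutarate, the cosubstrate of the dioxygenases that remove methyl groups from histones, among them the H3K27 demethylases.

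Each group had 3 libraries, with 32339533 to 39888396 reads counted on genes per library. The vehicle libraries carry the numbers 1 to 3, the oxamate libraries 4 to 6 and those of the combined treatment 7 to 9. The authors describe 3 replicate incubations of RS for each treatment. Nothing in the labels ties the 3 libraries of a group to separate animals, so p-values measure the spread between these libraries, which may be technical. In a principal component analysis of 10715 genes, oxamate library 4 lay apart from oxamate libraries 5 and 6, with a second component of 3.56 against -12.2 and -14.6, and results that rest on it are given with and without it. Vehicle library 1 had 14.0 on that component, against 4.13 and 0.733 in the other vehicle libraries, and library 7 was the highest of its group for 7 of the 9 Polycomb genes with a mean of at least 100. All 16 markers of RS were well expressed, and their summed level was 4012 to 4101 CPM (counts scaled to the library total) in vehicle, 3939 to 3994 in oxamate and 3513 to 3525 with the combined treatment. Of these 16 markers, 4 were called lower and 1 higher in oxamate than in vehicle (edgeR, adjusted p under 0.05), 8 lower and 0 higher with the combined treatment than in oxamate, and 9 lower and 3 higher with the combined treatment than in vehicle. The shares called lower, 25%, 50% and 56.2%, stand against 1.22%, 8.06% and 10.6% of all genes tested. The 12 spermatocyte markers summed to 785, 895 and 820 CPM in vehicle, 718, 811 and 818 in oxamate and 876, 856 and 824 with the combined treatment, so that each library with both compounds lay above each oxamate library. Of these 12, 2 were called higher and 1 lower in that comparison. Syce1 was the largest part of the spermatocyte sum, at a median of 460 CPM over the 9 libraries, while Dmc1 had 6 to 15 counts. Spermatogonia markers summed to 15.1 to 16.8 CPM. Markers of Sertoli cells summed to at most 4.84 CPM in any library, those of Leydig cells to 1.12, of peritubular and stromal cells to 2.65 and of blood and endothelial cells to 5.70. Most of the Sertoli sum was Inha, with 89 to 175 counts per library, while the other 8 Sertoli markers had at most 4. Among the blood and endothelial markers Adgre1 had 46 to 91 counts and Csf1r 33 to 43. These marker differences accompany those of the Polycomb genes in all 3 comparisons described next, and their part in them was not tested. In such bulk RNA, fewer cells of a type and less RNA per cell cannot be told apart.

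At baseline, Phf1 was the most abundant of the 10 mRNAs per exon length. Levels are given here as normalized counts, which are counts divided by the size factor of the library, and per kb of exon where genes are compared with each other. In vehicle, Phf1 stood at 841 ± 111 normalized counts per kb (SD, n = 3). Ezh2 followed at 504 ± 42.8, Eed at 298 ± 14.6 and Rnf2 at 169 ± 7.21. The vehicle libraries of these 4 genes did not overlap with those of the next gene down. Suz12 (94.8 ± 13.1), Jarid2 (86.6 ± 12.1), Mtf2 (73.1 ± 2.41) and Scml2 (70.4 ± 4.99) formed a group whose neighbours overlapped. Ezh1 lay below them at 48.6 ± 2.02. Within the PRC2 core, Suz12 mRNA per kb was below that of Eed in every library. Phf19, the third Polycomb-like gene, had 0 to 5 counts per library and carries no information on any comparison.

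**Figure D1:**
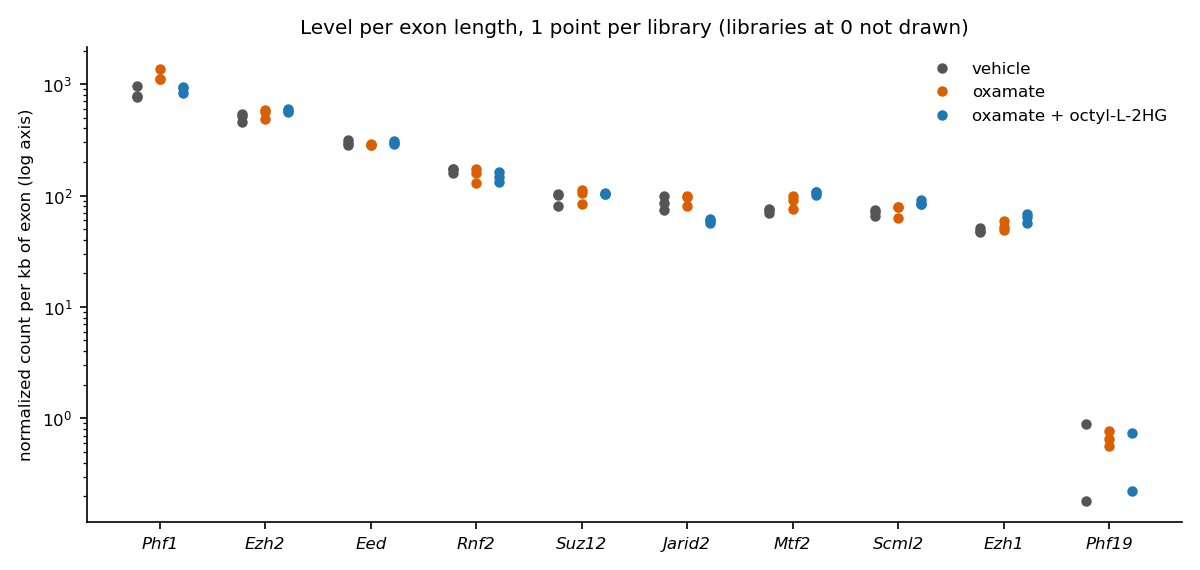
Normalized count per kb of exon (log axis) of the 10 Polycomb genes in each of the 9 libraries, coloured by treatment and ordered by the vehicle mean. Phf1 and Ezh2 lead in every group, whereas Jarid2 moves from the sixth place in vehicle to rank 9 with the combined treatment, below Mtf2, Scml2 and Ezh1.

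The order changed at its lower end with treatment. With the combined treatment Mtf2 reached 105 ± 3.14 normalized counts per kb, level with Suz12 at 104 ± 1.31, and Jarid2 fell to rank 9 at 59.3 ± 2.70, where its libraries overlapped with those of Ezh1 at 62.9 ± 5.37. In oxamate alone the order of the 10 genes was that of vehicle.

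Over the 3 groups, 4 of the 10 genes differed in the test of any difference (edgeR quasi-likelihood test, adjusted p under 0.05), while 19.8% of the 25128 genes tested did. Among genes with a mean of at least 100 normalized counts, a level that 9 of the 10 genes reach, the share was 33.5%, so the count of 4 is near the background. The 4 genes were Phf1, Jarid2, Mtf2 and Ezh1. Phf1, Mtf2 and Jarid2 encode accessory subunits, and Ezh1 a methyltransferase. Without oxamate library 4 there were 7 such genes, with Ezh2, Rnf2 and Scml2 in addition, against 29.7% of the 24668 genes tested then.

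**Figure D2:**
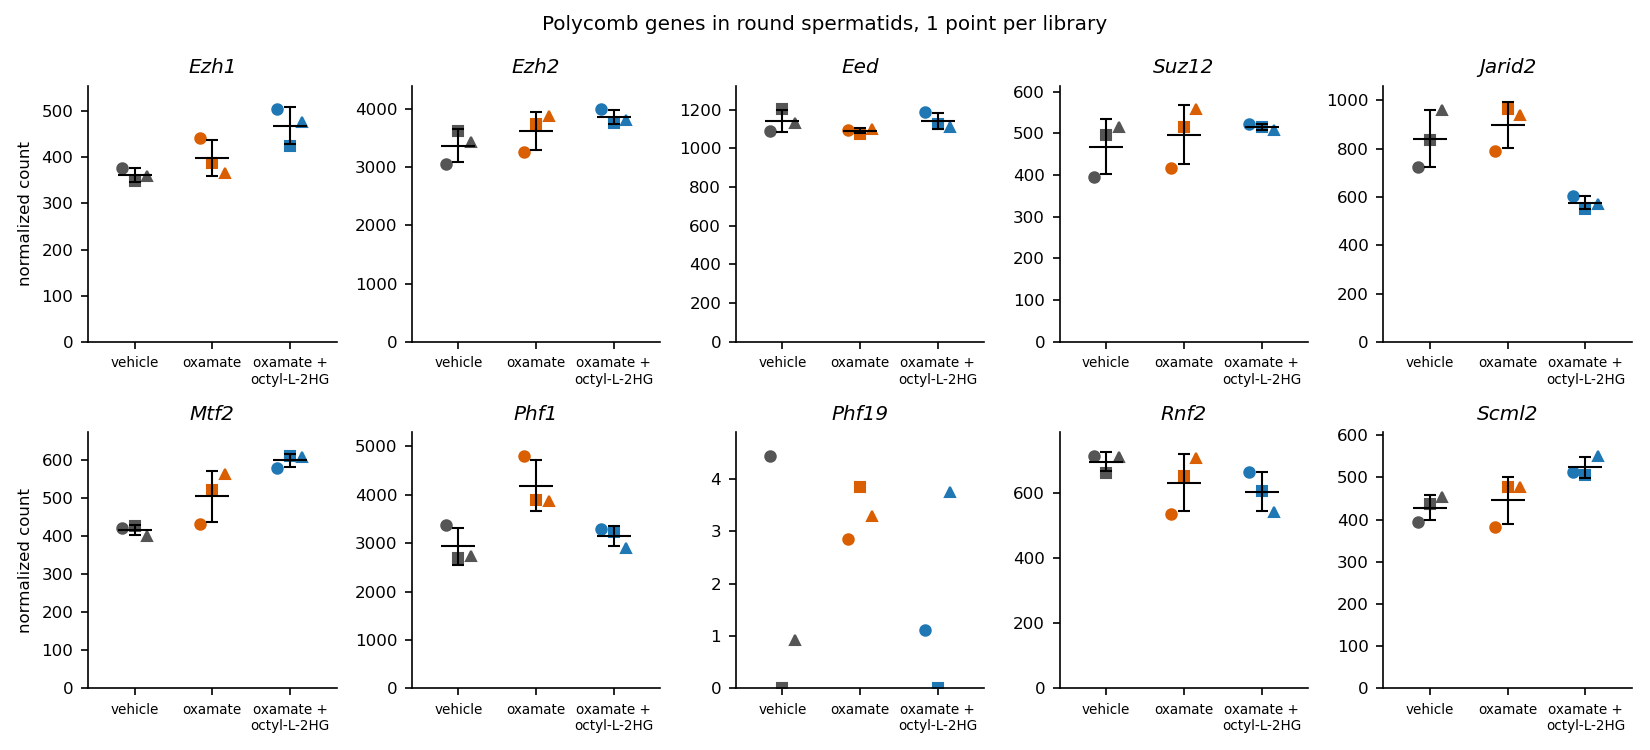
Normalized counts of each gene in the 3 groups, with 1 point per library (circle, square and triangle in order of library number), and bars for the mean and SD except for Phf19. The 3 oxamate libraries of Phf1 lie above the other 6, the 3 libraries of Jarid2 with both compounds lie below the other 6, and the 3 groups of Mtf2 do not overlap.

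The windows before the start sites of these 4 genes are shown because theirs are the mRNAs that differed. Each is the 250 bases upstream of the most upstream start that RefSeq lists for the gene in assembly GRCm38.p6, written 5′ to 3′ on the strand of the gene. The windows are chr17:26932877-26933126 on the plus strand for Phf1, chr5:108065424-108065673 on the plus strand for Mtf2, chr13:44730524-44730773 on the plus strand for Jarid2 and chr11:101226464-101226713 on the minus strand for Ezh1. Capitals mark GGGCGG, a GC box, on either strand, and CCAAT on either strand.
Phf1: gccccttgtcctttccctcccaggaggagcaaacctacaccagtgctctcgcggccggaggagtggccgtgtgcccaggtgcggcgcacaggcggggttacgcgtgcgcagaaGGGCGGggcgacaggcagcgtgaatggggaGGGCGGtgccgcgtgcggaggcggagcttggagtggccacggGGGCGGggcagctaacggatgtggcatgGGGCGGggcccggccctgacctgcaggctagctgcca
Mtf2: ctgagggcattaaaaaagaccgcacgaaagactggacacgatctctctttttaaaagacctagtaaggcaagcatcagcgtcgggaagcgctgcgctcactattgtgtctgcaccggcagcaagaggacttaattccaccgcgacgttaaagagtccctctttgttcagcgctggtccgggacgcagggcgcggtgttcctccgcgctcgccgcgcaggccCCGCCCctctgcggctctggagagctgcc
Jarid2: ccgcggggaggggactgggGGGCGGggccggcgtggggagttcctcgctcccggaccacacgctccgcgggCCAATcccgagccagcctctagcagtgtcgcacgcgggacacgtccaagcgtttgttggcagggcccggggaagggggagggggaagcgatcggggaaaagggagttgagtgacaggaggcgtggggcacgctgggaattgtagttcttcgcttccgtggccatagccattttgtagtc
Ezh1: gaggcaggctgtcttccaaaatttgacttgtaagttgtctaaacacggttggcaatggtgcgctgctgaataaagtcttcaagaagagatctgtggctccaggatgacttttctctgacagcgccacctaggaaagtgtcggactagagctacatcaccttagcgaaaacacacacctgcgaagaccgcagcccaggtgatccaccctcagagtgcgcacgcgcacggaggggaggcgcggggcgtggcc

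The Phf1 window had 4 GC boxes and a G+C content of 72%, that of Mtf2 had 1 GC box and 59.2%, that of Jarid2 had 1 GC box, 1 CCAAT and 67.2%, and that of Ezh1 had neither motif and 55.2%. Over the 10 genes, 6 windows held GGGCGG and 3 held CCAAT, against 32.7% and 33.8% of all 32817 windows. The G+C content of the 10 windows ran from 54.4% for Eed to 75.2% for Phf19, above the median of all windows of 52.4%, and they held 7 to 37 CpG, against a median of 6. Of the other motifs searched on both strands, TGACG was in the windows of Suz12 and Phf19 (17.7% of all windows). None of the 10 windows held TGACGTCA, which contains TGACG (1.55%), CACGTG (6.02%) or TTTGGCGC (0.417%). The motifs were chosen with the sequences at hand, and a match describes letters only.

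Oxamate raised Phf1, and none of the other 9 genes passed the test. Of the 25128 genes tested, 3.97% were called higher and 1.22% lower in oxamate than in vehicle (8.08% and 1.59% of those with a mean of at least 100), and of the 10 Polycomb genes 1 was called higher and 0 lower. At an unadjusted p under 0.05 it was 2 higher and 0 lower, against 10.2% and 7.12% of all genes tested (17.8% and 7.97% of those with a mean of at least 100). DESeq2 called the same 1 gene, with 3.92% of all genes called higher and 1.07% lower. PHF1 is a Polycomb-like protein that links PRC2 to H3K36 methylation through its Tudor domain and to CpG-rich DNA. Its normalized counts were 3378, 2687 and 2732 in vehicle, 4805, 3893 and 3866 in oxamate, and 3288, 3233 and 2901 with the combined treatment. Each oxamate library was above each of the other 6. The rise in oxamate was 1.43-fold (95% confidence interval 1.25 to 1.64), or 0.52 on the log2 scale (SE 0.093, edgeR adjusted p = 0.00138). Without oxamate library 4, the highest of the 9, it was 0.40 (adjusted p = 0.00043).

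Added octyl-L-2HG brought Phf1 back down. The combined treatment was 0.736-fold the oxamate level (0.643 to 0.841), a log2 difference of -0.44 (SE 0.093, edgeR adjusted p = 0.00328), and -0.33 without oxamate library 4 (adjusted p = 0.00213). Against vehicle the combined treatment differed by 0.08 on the log2 scale, with an interval of 0.922- to 1.21-fold and an adjusted p of 0.647. Oxamate and combined treatment are compared through the same oxamate libraries in both steps. Exons of Phf1 share 1370 of their 3486 bases (39.3%) with those of Cuta on the opposite strand in the annotation used for lengths, and the strand setting of the counting is not given in the sources used here. Over the 9 libraries Cuta had 544 counts and Phf1 31068. Cuta had means of 68.7 normalized counts in vehicle, 66.7 in oxamate and 41.4 with the combined treatment. Its log2 difference was -0.03 in oxamate against vehicle (edgeR adjusted p = 0.966), and -0.72 with the combined treatment against oxamate (adjusted p = 0.0214), a call lost without oxamate library 4 or any library with both compounds. The part of shared reads in the Phf1 values was not tested.

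Mtf2, the second Polycomb-like gene, had another pattern. MTF2 brings PRC2 to unmethylated CpG islands. Its normalized counts were 421, 427 and 401 in vehicle, 432, 521 and 565 in oxamate, and 579, 612 and 608 with the combined treatment. The 3 groups did not overlap with each other, and the order was vehicle, oxamate, combined treatment. Only the difference between its ends passed the test, at 1.42-fold (1.24 to 1.62), or 0.51 on the log2 scale (SE 0.092, edgeR adjusted p = 0.000454). The step from vehicle to oxamate was 0.28 (SE 0.093, adjusted p = 0.0875), and it was 0.38 without oxamate library 4 (adjusted p = 0.00201). The step from oxamate to the combined treatment was 0.22 (SE 0.091, adjusted p = 0.128), and 0.13 without oxamate library 4 (adjusted p = 0.321). Mtf2 shares 395 of its 5698 exon bases (6.93%) with Tmed5 on the opposite strand, and Tmed5 moved the same way, from a mean of 168 normalized counts in vehicle to 235 in oxamate (adjusted p = 0.0103, up to 0.0597 without 1 library) and 275 with the combined treatment (adjusted p = 1e-04 against vehicle). The part of shared reads in the Mtf2 values was not tested.

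Jarid2 fell when octyl-L-2HG was added. JARID2 is a member of the Jumonji family that lacks demethylase activity and stimulates and recruits PRC2. Its normalized counts were 725, 838 and 961 in vehicle, 790, 963 and 942 in oxamate, and 604, 552 and 573 with the combined treatment. Every library with both compounds was below the other 6, whose vehicle and oxamate values overlapped. The level with the combined treatment was 0.631-fold that in oxamate (0.548 to 0.726), a log2 difference of -0.66 (SE 0.098, edgeR adjusted p = 0.000127). Against vehicle it was 0.675-fold (0.587 to 0.778), or -0.57 (SE 0.098, adjusted p = 0.000264). Oxamate against vehicle gave 0.10 (SE 0.095, adjusted p = 0.662), with an interval of 0.934- to 1.23-fold. Without oxamate library 4, Jarid2 was -0.75 with both compounds against oxamate.

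In that comparison of both compounds with oxamate, the genes called were 2 lower, Jarid2 and Phf1, and 0 higher, while 8.06% of the genes tested were called lower and 3.18% higher (12.7% and 7.06% of those with a mean of at least 100). DESeq2 called the same 2 genes lower and 0 higher, with 6.47% of all genes called lower and 5.01% higher. At an unadjusted p under 0.05 edgeR gave 2 lower and 3 higher, against 15.1% and 8.5% of all genes tested (19.9% and 16.9% of those with a mean of at least 100). Against vehicle the combined treatment had 2 genes called higher, Mtf2 and Ezh1, and 1 lower, Jarid2, while 7.48% of the genes tested were called higher and 10.6% lower (16% and 13.6% of those with a mean of at least 100). DESeq2 added Scml2 to the genes called higher, with 8.6% of all genes called higher. Counted by libraries that do not overlap, 2 genes were higher and 0 lower in oxamate than in vehicle, where this held for 16.5% and 10.7% of the 10715 genes with a mean of at least 100. With both compounds 3 were higher and 2 lower than in oxamate (24.4% and 18.3% of those genes), and 4 were higher and 1 lower than in vehicle (33.6% and 19.4%). The median log2 difference of the 10 genes was 0.10 in oxamate against vehicle, 0.03 with both compounds against oxamate and 0.10 with both against vehicle, where that of all genes tested was -0.01, -0.04 and -0.05. For the 9 genes with a mean of at least 100 it was 0.10, 0.04 and 0.12, where that of all such genes was 0.01, 0.01 and 0.03.

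**Figure D3:**
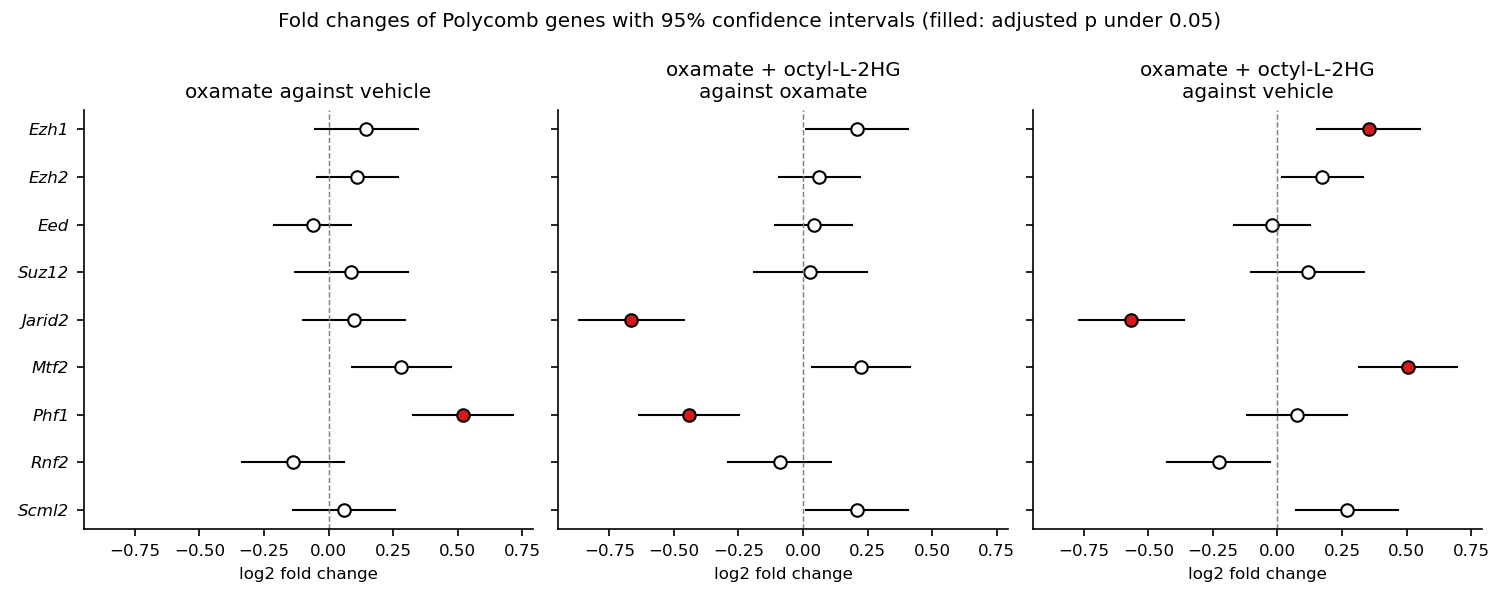
Log2 fold change of 9 Polycomb genes in the 3 comparisons, with 95% confidence intervals from the edgeR fit, filled where the adjusted p is under 0.05. Phf1 rises by 0.52 in oxamate and drops by 0.44 when octyl-L-2HG is added, Jarid2 drops by 0.66 in that step, and Mtf2 and Ezh1 are higher with both compounds than in vehicle.

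Ratios within a library compare these alternative partners of PRC2 free of scaling between libraries, and are given as a description. They are not free of the lean of fold changes with exon length given below. Jarid2 per kb was 1.01, 1.15 and 1.41 times Mtf2 in the vehicle libraries and 1.07, 1.08 and 0.978 times Mtf2 in oxamate. With both compounds the ratio was 0.611, 0.529 and 0.552, below all other libraries. Phf1 per kb was 11.5 ± 1.46 times Mtf2 in vehicle (SD, n = 3), 13.9 ± 3.76 times in oxamate and 8.57 ± 0.743 times with both compounds, the last again below the other 6 libraries. This ratio was 18.2 in oxamate library 4, against 12.2 and 11.2 in oxamate libraries 5 and 6. Phf1 against Jarid2 gave 9.95 ± 2.67 in vehicle, 13.2 ± 3.24 in oxamate and 15.2 ± 1.11 with both compounds. The libraries with both compounds lay above those of vehicle, and oxamate overlapped with each. The overlap of oxamate with both compounds came from oxamate library 4 alone, at 17.0. Oxamate libraries 5 and 6, at 11.3 and 11.4, were below all libraries with both compounds, the lowest of which had 14.1.

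**Figure D4:**
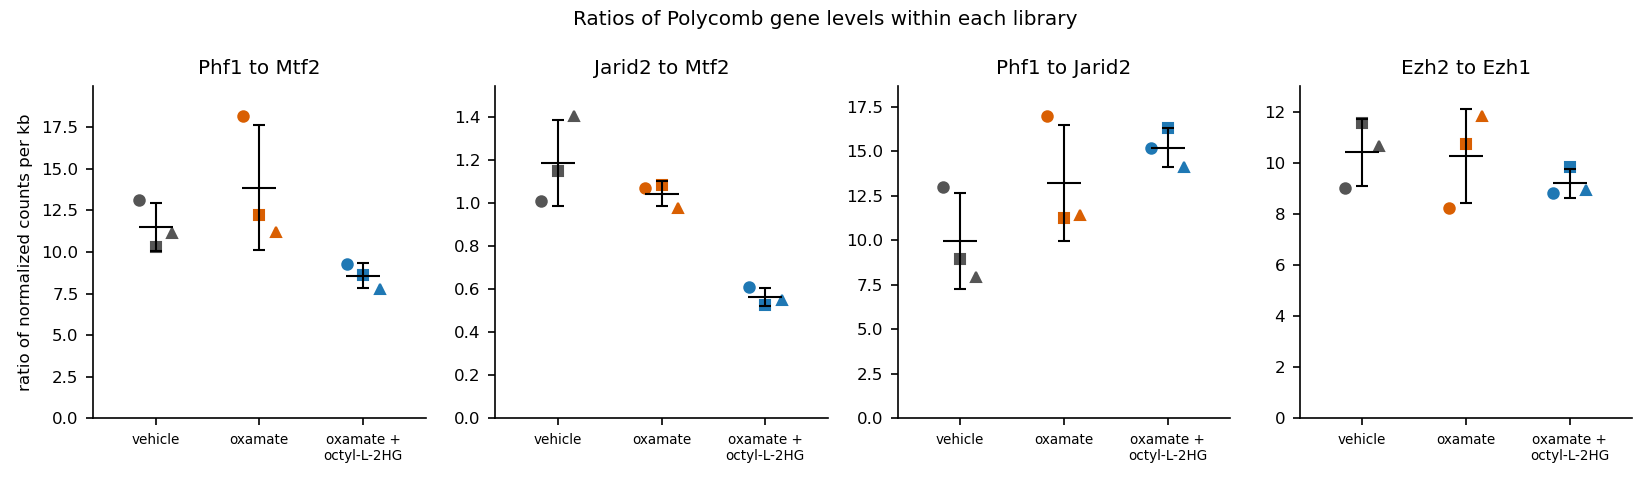
Ratios of normalized counts per kb between pairs of Polycomb genes in each library, with group means and SD. The libraries with both compounds have the lowest ratios of Phf1 to Mtf2 and of Jarid2 to Mtf2. Their ratios of Phf1 to Jarid2 lie above those of vehicle. Oxamate overlaps there with vehicle and, through oxamate library 4 only, with both compounds. The ratios of Ezh2 to Ezh1 overlap between all 3 groups.

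Among the methyltransferases, Ezh1 was higher with both compounds than in vehicle. EZH1 is the paralog that prevails in cells that no longer divide. Its normalized counts were 378, 348 and 359 in vehicle, 441, 388 and 365 in oxamate, and 504, 425 and 476 with the combined treatment. All 3 libraries with both compounds were above the 3 vehicle libraries, and oxamate overlapped with each. The difference from vehicle was 1.28-fold (1.11 to 1.47), or 0.35 on the log2 scale (SE 0.095, edgeR adjusted p = 0.0118). It was called in 6 of 9 fits that each left out 1 library, with adjusted p of 0.0522 without vehicle library 2, 0.0783 without library 7 and 0.0521 without library 9, and it was 0.25 with an adjusted p of 0.0679 once a smooth trend with exon length was removed. Against oxamate the combined treatment gave 0.21 (adjusted p = 0.184), and 0.29 without oxamate library 4 (adjusted p = 0.0212).

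Ezh2, the main methyltransferase, had 3055, 3614 and 3437 normalized counts in vehicle, 3262, 3744 and 3880 in oxamate, and 3996, 3766 and 3815 with the combined treatment. The libraries with both compounds were above those of vehicle, but the difference of 0.17 on the log2 scale did not pass the test (SE 0.076, edgeR adjusted p = 0.122, 1.01- to 1.26-fold). It passed without oxamate library 4 (adjusted p = 0.0234). Per kb, Ezh2 was 9.01 to 11.6 times Ezh1 in vehicle, 8.24 to 11.8 times in oxamate and 8.83 to 9.86 times with both compounds, so the ranges overlapped.

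The structural core showed no difference that passed the test. Eed had 1092, 1203 and 1133 normalized counts in vehicle, 1096, 1077 and 1101 in oxamate, and 1190, 1126 and 1113 with the combined treatment. The intervals of its 3 differences lay within 0.864- and 1.14-fold. Suz12 had 394, 496 and 516 in vehicle, 418, 516 and 558 in oxamate, and 522, 515 and 509 with the combined treatment. Its intervals lay within 0.876- and 1.26-fold, and its vehicle library 1 and oxamate library 4 were the lowest of the 9.

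Of the PRC1 genes, Rnf2 encodes the E3 ligase RING1B, which pairs with a PCGF protein. Rnf2 had 714, 662 and 712 normalized counts in vehicle, 536, 652 and 708 in oxamate, and 665, 605 and 543 with the combined treatment. Both treated groups overlapped with vehicle, and the combined treatment differed from it by -0.23 on the log2 scale (SE 0.095, edgeR adjusted p = 0.108). Without oxamate library 4 the adjusted p was 0.0199. Scml2 had 394, 437 and 453 normalized counts in vehicle, 382, 476 and 478 in oxamate, and 513, 506 and 551 with the combined treatment. All 3 libraries with both compounds were above the other 6. The difference from vehicle was 0.27 (SE 0.095, 1.05- to 1.38-fold), just short of the threshold (edgeR adjusted p = 0.0515), and was called by 5 of 9 other ways of testing, DESeq2 among them (adjusted p = 0.0349). Against oxamate the combined treatment gave 0.21 (adjusted p = 0.176), and 0.12 without oxamate library 4 (adjusted p = 0.404).

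Oxamate library 4 was the lowest of its group for 6 of the 9 expressed genes and the highest for Phf1 and Ezh1, and vehicle library 1 was the lowest of its group for 5. Fold changes leaned with exon length over 10696 genes (Spearman's rho 0.312 in oxamate against vehicle, 0.171 with both compounds against oxamate, 0.348 with both against vehicle, a description over genes of the same libraries). The exon lengths ran from 3486 bases for Phf1 to 9715 bases for Jarid2, and with length offsets both kept their calls.

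The remaining genes of the Polycomb system came from 6 lists of 59 genes, of which 56 were tested. These lists were chosen with earlier results of these data known, so their shares are a description and no test of the lists. In oxamate 11 of the 56 were called higher and 0 lower (edgeR), a share of 19.6% higher against 3.97% of all genes tested and 8.08% of those with a mean of at least 100. The number was 6 when the 2 groups were fitted on their own, 5 without vehicle library 2 and 7 without vehicle library 1 or oxamate library 5, where 2.19% to 2.88% of all genes were called higher. With both compounds 4 were called higher and 2 lower than in oxamate, or 7.14% and 3.57%. The matching shares were 3.18% and 8.06% of all genes tested, and 7.06% and 12.7% of those with a mean of at least 100. The list counts became 8 and 4 without oxamate library 4, where the shares of all genes also rose, to 6.38% and 11.5%. They were 2 and 1 without oxamate library 5 (1.26% and 4.54% of all genes), and at most 2 and 2 without library 7, 8 or 9 (0.978% to 1.62% and 4.66% to 5.44%). Against vehicle 16 were called higher and 3 lower, or 28.6% and 5.36%. The matching shares were 7.48% and 10.6% of all genes tested, and 16% and 13.6% of those with a mean of at least 100. The 16 became 6 to 10 without vehicle library 1 or library 7, 8 or 9 (4.73% to 5.94% of all genes), and the 3 became 1 without vehicle library 2 or 3 or any library with both compounds (7.27% to 8.44% of all genes). Among genes of these lists with a mean of at least 100, the calls that held in all 9 fits without 1 library were those of Bcor, Kdm2b, Hcfc1 and Kdm6b in oxamate against vehicle, and of Aebp2, Mga, Pcgf6, Bap1 and Sfmbt1 with both compounds against vehicle. Every other call on such a gene named next was lost in at least 1 of these fits, and those held in fewer than 5 of the 9 are given with their number.

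**Figure D5:**
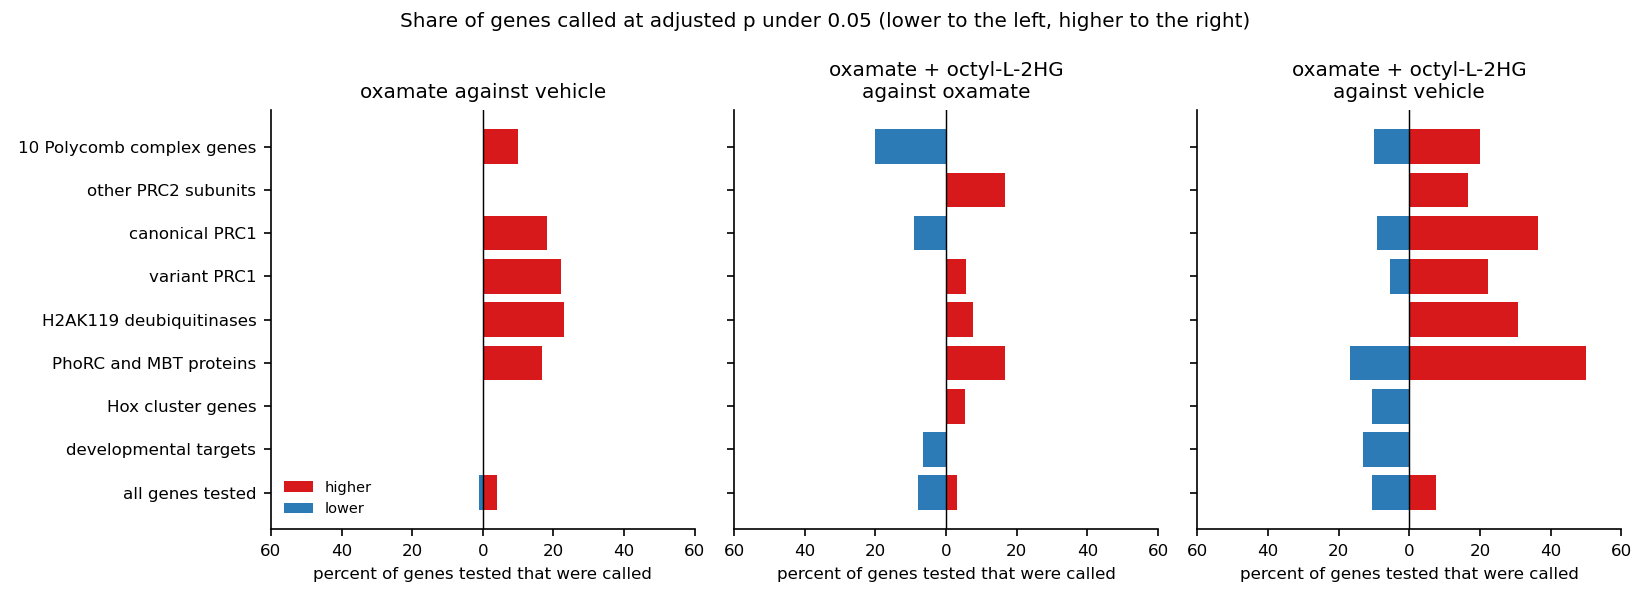
Percent of the genes tested in each list that were called at an adjusted p under 0.05, with genes called lower to the left and higher to the right of 0. The H3K27 demethylases, with 2 genes tested, are not drawn. In oxamate against vehicle the calls of the Polycomb lists lie on the higher side, the other PRC2 subunits have none, and the Hox genes and developmental targets have no call in that comparison.

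Among the other PRC2 subunits, 0 of 6 were called in oxamate against vehicle, and 2 had a higher but uncalled value at an unadjusted p under 0.05. Called or not, 10.2% of all genes tested were higher at that threshold, and 17.8% of those with a mean of at least 100. AEBP2 works with JARID2 in the same form of PRC2. Aebp2 was higher with both compounds than in vehicle by 0.46 (SE 0.105, edgeR adjusted p = 0.00332), opposite in direction to Jarid2, with means of 184 normalized counts in vehicle, 220 in oxamate and 257 with both. Lcorl, whose gene can encode a PRC2 partner, was higher with both compounds than in oxamate by 0.36 (adjusted p = 0.0117). It shares 944 exon bases with Ncapg on the opposite strand, which had 23444 counts over the 9 libraries against 5557 for Lcorl, and the part of shared reads was not tested. Rbbp4, a histone chaperone of the core, gave -0.04, -0.02 and -0.06 in the 3 comparisons and was not called.

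Of 11 canonical PRC1 genes, 2 were called higher in oxamate and 4 higher and 1 lower with both compounds against vehicle. Cbx7, a reader of H3K27me3, was 0.34 higher in oxamate (SE 0.076, edgeR adjusted p = 0.00886) and 0.28 higher with both compounds than in vehicle (adjusted p = 0.0127). Ring1, the paralog of Rnf2, was lower with both compounds, with a log2 difference of -0.35 against oxamate (adjusted p = 0.0137) and -0.27 against vehicle (adjusted p = 0.0348), the last a call held in 3 of 9 fits without 1 library. Scmh1, which was the most abundant of these 3, gave 0.18 against vehicle at an adjusted p of 0.0497, held in 2 of 9. The other calls were Cbx8 and Pcgf2, named after their values were seen, at means of at most 33.6 and 17.3 normalized counts.

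Of 18 variant PRC1 genes, 4 were called higher in oxamate and 0 lower. They were Bcor, by 0.65 (SE 0.121, edgeR adjusted p = 0.00191), Kdm2b, by 0.39 (adjusted p = 0.00274), Mga, by 0.32 (adjusted p = 0.0341), and Bcorl1, by 0.29 (adjusted p = 0.0368). The Mga call in oxamate held in 2 of 9 fits without 1 library and in 4 of 9 other alternatives, and that of Bcorl1 in 3 of 9 and 6 of 9. Kdm2b shares 627 exon bases (5.77%) with Rnf34 on the opposite strand, which had 38737 counts over the 9 libraries against 23627 for Kdm2b, and the part of shared reads was not tested. KDM2B brings a PRC1 form that also holds BCOR to CpG islands, and MGA belongs to the form built on PCGF6. Mga rose further with added octyl-L-2HG, by 0.36 against oxamate (adjusted p = 0.00912), and reached 0.68 against vehicle (adjusted p = 1.03e-05). Its normalized counts were 1090, 1298 and 1366 in vehicle, 1353, 1634 and 1695 in oxamate, and 2074, 2031 and 2015 with both compounds. Pcgf6 was called lower with both compounds than in vehicle, with a log2 difference of -0.34 (adjusted p = 0.00361), while Rybp, Fbrs and Wdr5 were called higher by 0.23 to 0.33, Wdr5 in 4 of 9 fits without 1 library. Bcorl1, Pcgf6, Rybp, Fbrs and Wdr5 were named after their values were seen.

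Of 13 genes for enzymes that remove H2AK119 ubiquitin or for partners of BAP1, 3 were called higher in oxamate. Bap1, the catalytic subunit of the PR-DUB complex, was 0.33 higher (edgeR adjusted p = 0.0243), a difference of 0.20 without oxamate library 4 and a call lost without vehicle library 2 or 3. Its partners Hcfc1 and Mbd6 were 0.54 (adjusted p = 0.000636) and 0.31 higher (adjusted p = 0.0273). All 3 were also higher with both compounds than in vehicle, Bap1 by 0.49 (adjusted p = 0.000264). Usp16, another H2A deubiquitinase, named after its values were seen, was 0.27 higher with both compounds than in oxamate (adjusted p = 0.0286). Usp16 shares 192 exon bases with Cct8 on the opposite strand, which had 65872 counts against 70768, and this too was not tested. In the list of PhoRC and MBT-domain genes, 1 of 6 was called higher in oxamate (Mbtd1, by 0.31, adjusted p = 0.015), and Sfmbt1, Sfmbt2 and Mbtd1 were called higher with both compounds than in vehicle, by 0.35, 0.21 and 0.26, Sfmbt2 in 3 of 9 fits without 1 library. Scml4, called lower there, had a mean of at most 7.70 normalized counts and was named after its values were seen.

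Kdm6b, one of the enzymes that erase H3K27me3, was higher in oxamate than in either other group. Its normalized counts were 116, 139 and 151 in vehicle, 193, 221 and 197 in oxamate, and 142, 181 and 135 with both compounds. The oxamate libraries were above the other 6. Kdm6b was 0.60 higher in oxamate (SE 0.127, edgeR adjusted p = 0.00585) and with both compounds -0.45 against oxamate (SE 0.128, adjusted p = 0.0237), while both compounds against vehicle gave 0.15 (adjusted p = 0.515). Kdm6b shares 286 exon bases with its antisense gene Kdm6bos, which had 570 counts against 1482, and the part of shared reads was not tested.

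The genes that Polycomb is known to silence were mostly at low counts in all groups. Of 39 Hox cluster genes in the table, 16 to 19 had 0 counts in a given library and 19 passed the filter on low counts, 3 of them with a mean of at least 100. In oxamate against vehicle 0 of the 19 were called (edgeR), with 0 higher and 4 lower at an unadjusted p under 0.05. Over all genes tested that threshold gave 10.2% higher and 7.12% lower. The Hox genes summed to 186.5 to 196.3 CPM in vehicle, 169.8 to 176.9 in oxamate and 180.5 to 186.6 with both compounds. Each oxamate library was thus below each vehicle library. With both compounds against vehicle Hoxa9 and Hoxc9 were called lower, at means of 31.2 and 31.6 normalized counts in vehicle and 10.5 and 14.2 with both. These 2 are 10.5% of the 19, against 10.6% of all genes tested. The only Hox gene called higher was Hoxd4, with both compounds against oxamate, at a mean of 3.27 normalized counts. These 3 genes were named after their values were seen.

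Of 69 developmental target genes listed, 46 were tested, and in oxamate against vehicle 0 were called. At an unadjusted p under 0.05 (edgeR) 4 were higher and 5 lower, against 10.2% and 7.12% of all genes tested. With both compounds 3 were called lower than in oxamate and 6 lower than in vehicle, and 0 higher in either comparison. These are 6.52% and 13% of the list, near the 8.06% and 10.6% of all genes tested that were called lower. Lhx2, a homeobox factor, had means of 152, 161 and 108 normalized counts in vehicle, oxamate and both, with a log2 difference of -0.60 against oxamate (edgeR adjusted p = 0.00659) and -0.52 against vehicle (adjusted p = 0.0102). The first call was lost without oxamate library 5, and the second without vehicle library 2 or library 9. Dlx6 gave -0.51 against oxamate (adjusted p = 0.0064), a call lost without oxamate library 5 or library 9. Gata2, at 1518 normalized counts in vehicle, passed only the test of any difference (adjusted p = 0.0441), at 1768 in oxamate and 1775 with both compounds, and this call held in 2 of 9 fits that each left out 1 library.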

How the data were processed

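RS RNA was sequenced from poly(A)-selected stranded libraries. The authors deposited raw counts of reads per gene and a normalized signal, in which each count is scaled by its library's DESeq2 size factor. The submitters' processing notes name cutadapt 2.10, TopHat2 2.1.1, HTSeq 2.01 and DESeq2 1.36.0. The strand setting of the counting is not given in the sources used here.

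Genes with at least 10 counts in total (25128) entered a fit in edgeR 4.0.16 under R 4.3.3 (quasi-likelihood test, TMM, all 9 libraries in one fit, Benjamini-Hochberg adjustment over all genes, threshold 0.05). The code of the fit was checked on simulated counts, and no result given here rests on that check. Alternatives were DESeq2 1.42.0, other scalings and filters, fits of only the groups compared, a threshold of 0.01, exon length offsets and each library left out. Exon lengths and overlaps came from an annotation of another assembly than the files', and 99.6% of tested genes had a length by their identifier. Members and lists were chosen with earlier results of these data known. Named are all 10 genes, at most 3 well-expressed genes per list with the smallest p over the groups, and genes marked as named after their values were seen, Cuta and Tmed5 included.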

Additional observations from a re-analysis of the deposited data

How the results depend on the processing

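Phf1, Jarid2 and Mtf2 kept their calls in all 9 fits without 1 library and in all 9 other alternatives, with log2 differences of 0.40 to 0.63 (Phf1, oxamate against vehicle), -0.50 to -0.33 (Phf1, both compounds against oxamate), -0.75 to -0.61 and -0.66 to -0.45 (Jarid2, both against oxamate and against vehicle, without 1 library) and 0.49 to 0.53 (Mtf2, both against vehicle, without 1 library). No paired analysis was possible because the groups share no replicate numbers.

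The number of the 10 genes called higher with both compounds than in vehicle (2) was 4 with no filter and with only the groups compared, and 1 at an adjusted p under 0.01 and with length offsets, while the share of all genes went from 7.48% to 7.25%, 12.1%, 4.08% and 5.81% in these fits. The number called lower (1) was 2 with total counts and with only the groups compared, where 13.4% and 12.9% of all genes were called lower against 10.6%. Without 1 library the numbers ran from 1 to 2 (oxamate higher), 0 to 1 (both against oxamate, higher), 1 to 4 and 1 to 2 (both against vehicle, higher and lower) and 3 to 7 (any difference), each highest without oxamate library 4. Without that library the shares of all genes rose as well, to 6.42%, 6.38%, 11.4%, 13.7% and 29.7%, from 3.97%, 3.18%, 7.48%, 10.6% and 19.8%. The number was 1 (both against vehicle, higher) without vehicle library 2, library 7 or library 9, with 4.73% to 5.76% of all genes.

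For the other Polycomb lists, oxamate raised 6 genes with only the groups compared, 5 at the stricter threshold and 7 with length offsets, which also gave 2 lower (2.47%, 2.01%, 3.07% and 1.28% of all genes). Both compounds against oxamate gave 2 higher and 5 lower with total counts, 7 higher with no filter, 1 higher and 0 lower at the stricter threshold, 4 lower at a mean of at least 100 and 4 lower with length offsets (in this order 1.68%, 10%, 3.85%, 0.879%, 4.14%, 15.1% and 7.93% of all genes). Both against vehicle gave 10 higher with total counts, 7 higher and 1 lower at the stricter threshold, 9 higher with length offsets and 1 lower by DESeq2 (4.9%, 4.08%, 6.29%, 5.81% and 8.03% of all genes). Without 1 library they ran from 5 to 12 and 0 to 2 (oxamate higher and lower), 1 to 8 and 0 to 4 (both against oxamate) and 6 to 23 and 1 to 4 (both against vehicle), the highest without oxamate library 4.

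Differences near 0 changed sign. Eed with both compounds against vehicle was 0.000773 by DESeq2, 0.000814 with its size factors, 0.0246 with no filter and -0.0519 to 0.0233 without 1 library, and against oxamate -0.00356 with total counts. Suz12 with both compounds against oxamate was -0.0172 with total counts and -0.0778 to 0.112 without 1 library, and in oxamate against vehicle -0.0219 to 0.196 without 1 library. Ezh2 with both compounds against oxamate was -0.00264 to 0.109 without 1 library. Phf19 with both compounds against vehicle was -1.52 to 1.66 without 1 library. The cause was not tested. Scaling by total counts lowered the share of calls that were higher from 28.3% to 14.3% over all genes (both against oxamate) and from 41.4% to 26.8% (both against vehicle).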
